A study of Bos taurus with 12 samples.

Results

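The comparison described here set bovine embryonic stem cells that had received both pyruvate and basic fibroblast growth factor (FGF) against cells of the same reduced feeder condition that had received neither. It rests on 6 of the 12 libraries of the series, 3 labelled 1/7MC+Pyr+FGF and 3 labelled 1/7MC. A further 3 libraries, labelled 1/7MC+Pyr, were used to see which differences were already present with pyruvate alone. All libraries came from the line F7, described in the labels as wild-type (WT) embryonic stem cells of Bos taurus, and messenger RNA was selected with poly-T beads. The series title speaks of recombinant human basic FGF and of feeder layers of low density. The labels give no concentration, no time and no source for the feeder cells, and they do not say what MC stands for. No group received FGF without pyruvate. The labels also do not say that replicates were separate cultures. The p-values therefore set group differences against the spread between these samples, and that spread may be technical.

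Embryonic stem cells are kept undifferentiated by transcription factors such as POU5F1 and NANOG, and in culture they often grow on a layer of fibroblasts, the feeders, that supplies matrix and growth factors. Basic FGF binds receptor tyrosine kinases on the cell surface and signals mainly through the ERK kinase cascade, which in primed stem cells of several mammals helps to hold the undifferentiated state. Pyruvate is the end product of glycolysis and enters mitochondria, where it is turned into acetyl-CoA, the fuel of the tricarboxylic acid cycle and, by way of citrate, the starting material of cholesterol and fatty acids.

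Total counts ranged from 28762910 to 44440972 over the 9 libraries. Of 19285 entries in the count table, 400 shared an identifier with another entry and were dropped, which left 18885, and 13770 of these had enough counts to be tested. The share of counts from the mitochondrial genome was 2.42% to 4.22%. On the first principal component of log2 CPM (the usual count of a gene relative to the total of its library), which held 51.4% of the variance, the 1/7MC libraries lay apart from the other 6. All 6 embryonic stem cell markers had counts in every library, and their summed level was 2334 to 2656 CPM in 1/7MC and 3225 to 3647 CPM in 1/7MC+Pyr+FGF. The 10 fibroblast and feeder markers were also present in every library. They summed to 12588 to 17927 CPM in 1/7MC and 10375 to 14574 CPM in 1/7MC+Pyr+FGF, so the 2 groups overlapped in the sum. Taken singly, POSTN, THY1, DCN and ACTA2 were lower and LUM was higher with both additions, without overlap. The groups overlapped in the other markers of this set. The 10 endothelial and blood markers were low. Of the blood markers, PTPRC and SPI1 stayed at 0.496 CPM or less in every library, while CD68 and CSF1R reached 2.09 and 1.68 CPM.

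With both additions 4068 genes changed at an adjusted p under 0.05, which is 29.5% of those tested. Of these, 1661 were higher (12.1%) and 2407 were lower (17.5%) than in 1/7MC. These shares are the reference for all counts of list members below, with both additions against neither. For pyruvate against neither 8.59% of all genes were higher and 11.1% lower. For FGF added to pyruvate the shares were 0.719% and 2.85%. The number higher was 1048 without 1/7MC replicate 1 and 1014 without 1/7MC replicate 3. Among changes of at least 1 on the log2 scale, 276 were rises (2% of genes tested) and 899 were falls (6.53%). The median over all genes tested was 0.01. Fold changes are log2 of 1/7MC+Pyr+FGF over 1/7MC unless another comparison is named, ± gives the standard error (each group had 3 libraries), triplets of CPM are replicates 1, 2 and 3, and every adjusted p is from edgeR's quasi-likelihood test with Benjamini-Hochberg adjustment over all genes tested.

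The smallest p-values among the falls belonged to PMEL, MAB21L1, PAX5, TBX20 and WFDC1, which differ in what they are known for. PMEL, a structural protein of pigment granules, read 139, 134 and 140.1 CPM in 1/7MC and 6.75, 6.52 and 7.63 CPM in 1/7MC+Pyr+FGF, a fall of 4.30 ± 0.11 (adjusted p = 7.3e-11). MAB21L1, a gene of eye and lens development, read 72.6, 69.4 and 77.7 CPM against 1.78, 1.18 and 2.88 CPM (-5.23 ± 0.23). In both genes the lowest 1/7MC library was far above the highest library with both additions. PAX5, a paired-box transcription factor of the midbrain and of B cells, fell by 3.59 ± 0.16, WFDC1, a secreted protease inhibitor, by 2.51 ± 0.13, and TBX20, a T-box factor of the heart, by 6.25 ± 0.30. TBX20 and MAB21L1 were among the 10 largest falls (of genes with at least 1 CPM in the higher group), with MT3, a metallothionein of neural tissue (-6.50 ± 0.55), MLANA, a melanocyte antigen (-6.09 ± 0.60), GRP, a neuropeptide (-5.92 ± 0.31), and HMX1, a homeobox factor of eye and ear (-4.73 ± 0.40). SIX6 and RLBP1, described with the eye genes below, CLEC1A, a lectin-like receptor (-4.70 ± 0.70), and DLX1, a forebrain homeobox factor (-4.67 ± 0.59), complete them. Some of these falls rest on few reads in the supplemented cells: MT3 had 7 counts over the 3 libraries against 606 in 1/7MC, MLANA 4 against 274, CLEC1A 4 against 108 and DLX1 7 against 174.

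The smallest p-values among the rises belonged to 5 genes of mixed function. PPP1R16B, a regulatory subunit of a protein phosphatase, read 6.70, 6.54 and 6.43 CPM in 1/7MC and 34.1, 33.2 and 31.2 CPM with both additions, a rise of 2.32 ± 0.11 (adjusted p = 3.4e-08). PRPH, which encodes the intermediate filament peripherin, went from 54.2, 51.8 and 60 CPM to 201, 215 and 185 CPM (1.85 ± 0.11). The groups did not overlap in either gene, and the 1/7MC+Pyr libraries lay between them. STXBP6, a regulator of vesicle fusion, rose by 1.77 ± 0.11, ACSS2, which makes acetyl-CoA from acetate, by 1.79 ± 0.12 and APLN, the peptide ligand apelin, by 2.14 ± 0.14. The 10 largest rises, under the same limit of 1 CPM, were in genes of low level: KRT6A, a keratin (4.34 ± 0.62), XDH, xanthine dehydrogenase (3.45 ± 0.48), MMP3, a matrix protease (3.42 ± 0.29), PLAC8A (3.41 ± 0.27), NPPA and NPPB, natriuretic peptides (3.39 ± 0.44 and 2.58 ± 0.37), LCP1, an actin-bundling protein (2.84 ± 0.27), FOXL2, a forkhead factor (2.77 ± 0.32), LY6G6C (2.71 ± 0.36) and WC1.3, of a family of receptors known from bovine T cells (2.56 ± 0.46). KRT6A had 5 counts over the 3 libraries of 1/7MC and 117 with both additions, and XDH had 13 and 159.

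**Figure D1:**
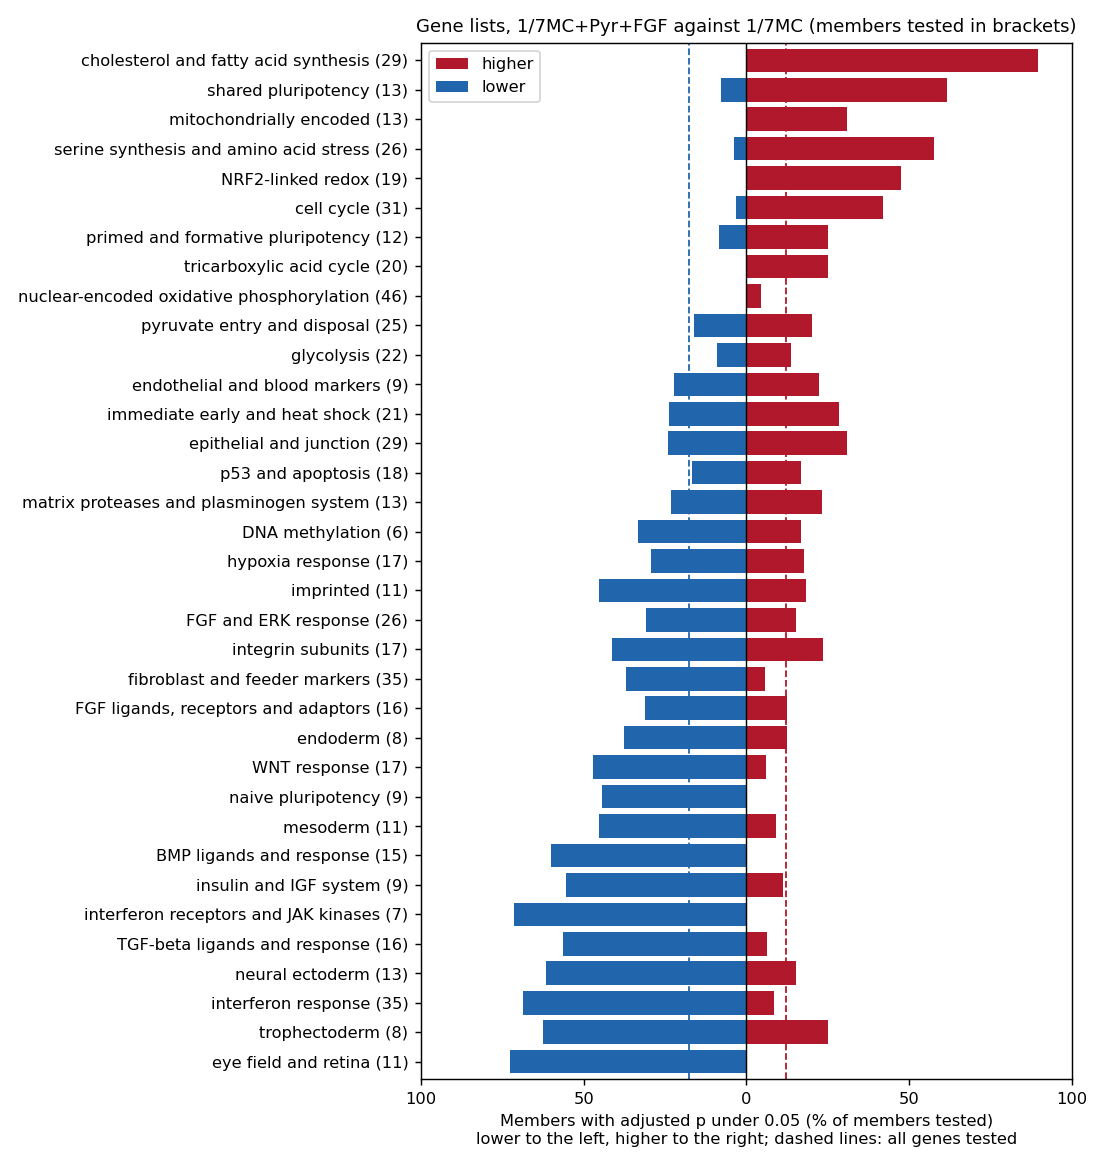
Share of the tested members of each of 35 gene lists that were higher (red, right) or lower (blue, left) in 1/7MC+Pyr+FGF than in 1/7MC at an adjusted p under 0.05, in percent; lists are ordered by their median log2 fold change and dashed lines mark all genes tested (12.1% higher, 17.5% lower). Cholesterol and fatty acid synthesis stands at the top with 26 of 29 members higher, and the eye field, trophectoderm, interferon and neural ectoderm lists are among the lowest. The trophectoderm median changed sign under a stricter filter on low counts.

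Genes of pluripotency shared by naive and primed cells were mostly higher with both additions. Of 19 in the list 13 were tested, and 8 rose and 1 fell, with a median of 0.56. POU5F1, the transcription factor that defines the undifferentiated state, read 846, 669 and 823 CPM in 1/7MC and 1386, 1013 and 1041 CPM with both additions (0.56 ± 0.14, adjusted p = 0.0090). NANOG, its partner factor, read 43.3, 37.4 and 40.4 CPM and 113, 80 and 77.8 CPM (1.16 ± 0.15). The 2 groups did not overlap in either gene, as was so for 21.6% of all genes upward and 24.7% downward. PRDM14, a chromatin regulator of pluripotent and germ cells, went from 59.1, 56.9 and 62.7 CPM to 129, 146 and 126 CPM (1.17 ± 0.10), with the 1/7MC+Pyr libraries in between at 117, 104 and 116 CPM. SALL4, a zinc finger factor of stem cells, rose by 0.59 ± 0.12, and LIN28A, which blocks let-7 maturation, by 0.49 ± 0.12. The member that fell was CRIPTO (listed by its older symbol TDGF1), a co-receptor for Nodal, at 4.44, 4.90 and 5.62 CPM against 2.29, 2.63 and 1.81 CPM (-1.16 ± 0.18). With pyruvate alone 11 of the 13 were higher, against 8.59% of all genes higher and 11.1% lower in that comparison (median 0.73). In bulk RNA, a change in the number of stem cells among feeders and a change in RNA per cell cannot be told apart.

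DNMT3B, the de novo DNA methyltransferase of primed cells, showed a different course. Its level was 1102, 1017 and 1042 CPM in 1/7MC, 1792, 1867 and 1958 CPM in 1/7MC+Pyr and 1209, 1429 and 1211 CPM in 1/7MC+Pyr+FGF. Every 1/7MC+Pyr library was above all others, and the change with both additions was 0.28 ± 0.11 and did not pass (adjusted p = 0.070), while 1/7MC+Pyr+FGF was lower than 1/7MC+Pyr by 0.55 ± 0.11 (adjusted p = 0.018). The call between the supplemented groups was lost without 1/7MC+Pyr replicate 3, 1/7MC+Pyr+FGF replicate 1 or 1/7MC+Pyr+FGF replicate 3 (adjusted p from 0.060 to 0.10). OTX2, a factor of the primed state, read 145, 136 and 152 CPM and 195, 159.6 and 168 CPM (0.27 ± 0.10, adjusted p = 0.071). Of 12 primed and formative genes 3 rose, among them FZD7, a WNT receptor (1.06 ± 0.21), and SALL3 (0.87 ± 0.17), and 1 fell, SFRP2, a secreted WNT antagonist (-1.42 ± 0.11); without 1/7MC+Pyr replicate 1 or 2 or 1/7MC+Pyr+FGF replicate 2 the number lower was 2. Of 9 naive-state genes tested of 15, none rose by edgeR or DESeq2, with 0 at an unadjusted p under 0.05, and 4 fell. TBX3, a T-box factor of naive cells and early lineages, was the one with the smallest p (9.06, 8.74 and 7.15 CPM against 2.34, 2.32 and 3.65 CPM, -1.59 ± 0.20). The other 3, ESRRB, GBX2 and KLF4, each lost the call when single libraries were left out, so that 1 of the 4 was called once replicate 1 of either group was left out, and 2 once 1/7MC replicate 2 or 3 or 1/7MC+Pyr+FGF replicate 3 was.

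**Figure D2:**
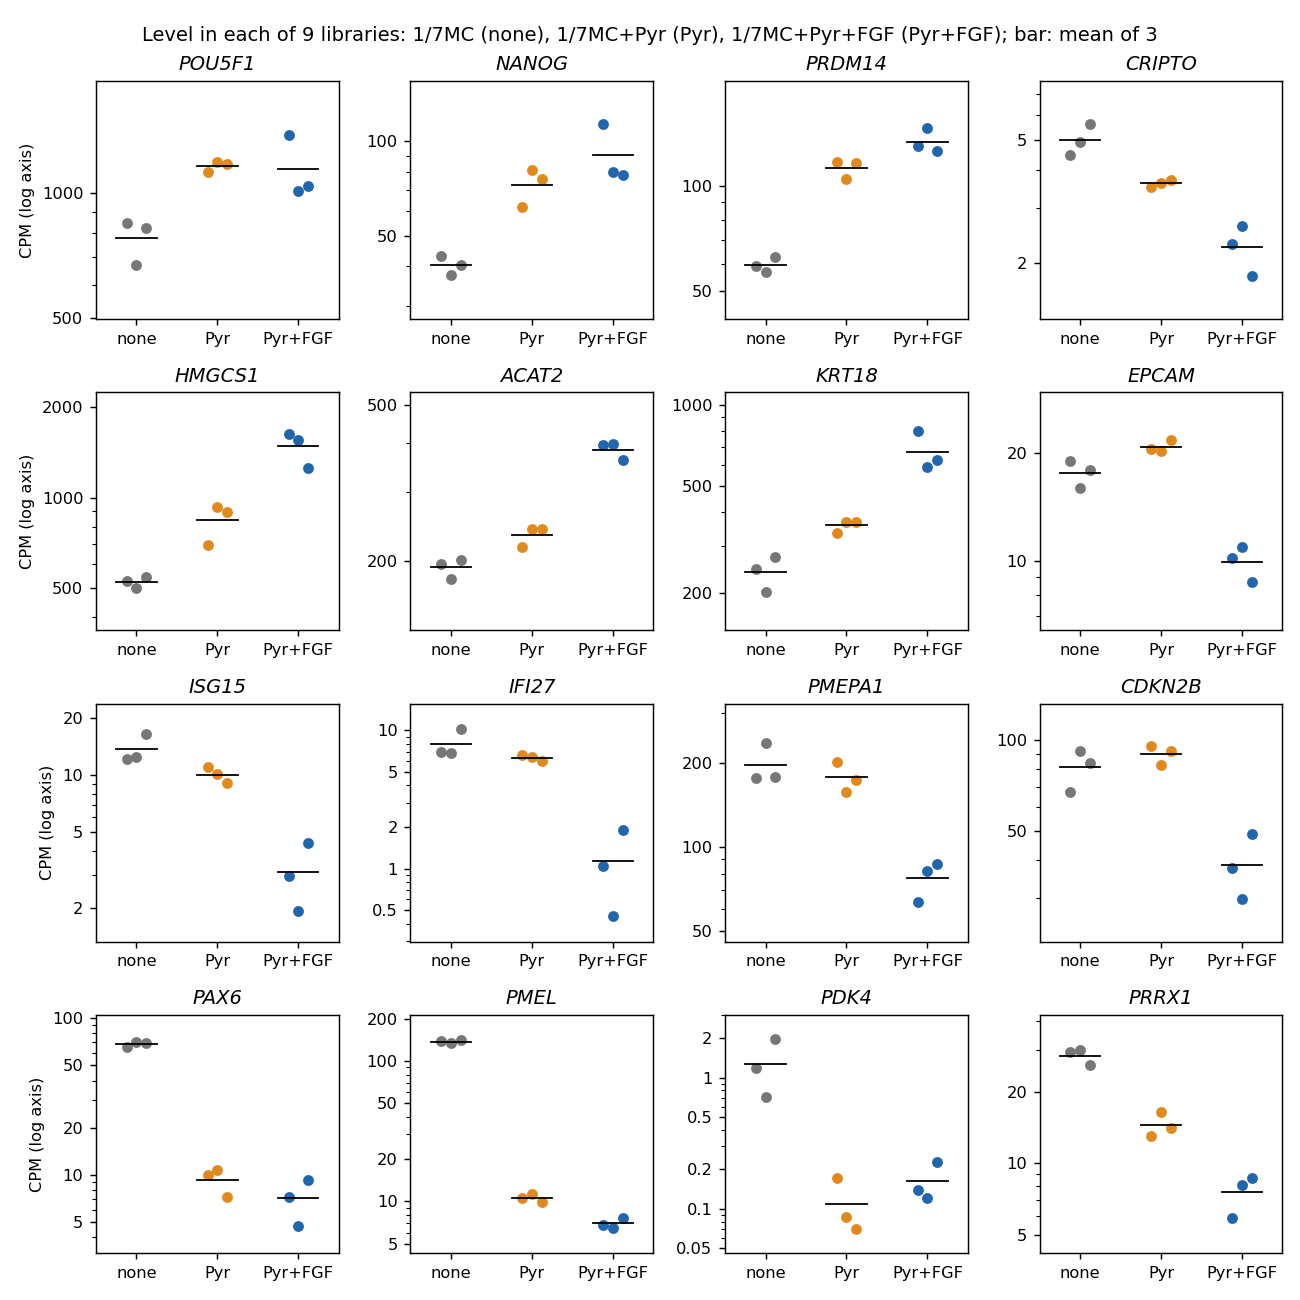
CPM (log axis) of 16 genes in each of the 9 libraries; points are libraries, bars are means of 3, and the columns are 1/7MC (none), 1/7MC+Pyr (Pyr) and 1/7MC+Pyr+FGF (Pyr+FGF). POU5F1, PAX6 and PDK4 sit at similar levels in both supplemented groups, HMGCS1 and PRRX1 step further with FGF, and ACAT2, EPCAM, ISG15, IFI27, PMEPA1 and CDKN2B depart from 1/7MC mainly with both additions.

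Genes of the eye field, retina and pigment layer were the list with the lowest median, at -3.20. Of 13 listed 11 were tested and 8 fell. None rose by edgeR or DESeq2, with 0 at an unadjusted p under 0.05. PAX6, the master factor of eye and neural fate, read 65.5, 70.4 and 70 CPM in 1/7MC and 7.27, 4.74 and 9.36 CPM with both additions (-3.26 ± 0.21). SIX6, an optic homeobox factor, went from 25.4, 19.4 and 29 CPM to 0.701, 0.966 and 1.10 CPM (-4.74 ± 0.26). Every supplemented library was below every 1/7MC library in both genes. RLBP1, a retinal binding protein of the pigment layer (-4.73 ± 0.28), DCT, an enzyme of melanin synthesis (-4.30 ± 0.26), and MITF, the transcription factor of pigment cells (-3.46 ± 0.24), fell likewise. With pyruvate alone the median of this list was -2.96 and the same number, 8, was lower. PMEL differed further between the supplemented groups, by -0.60 ± 0.11 with FGF added to pyruvate (adjusted p = 0.0076), and it was the only one of the 11 that passed there, although not in a fit of those 2 groups alone.

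Of 13 neural ectoderm genes tested, 8 fell and 2 rose (median -0.69). MAP2, a microtubule protein of neurons (-1.82 ± 0.14), PAX3, a factor of the dorsal neural tube (-3.74 ± 0.40), and PAX2, of midbrain and kidney (-1.14 ± 0.16), were lower. LHX5, a forebrain homeobox factor, was higher, at 7.41, 7.15 and 8.15 CPM against 20.5, 18.3 and 25.2 CPM (1.49 ± 0.15). NES, a filament protein of neural progenitors, did not pass (0.17 ± 0.18). Of 11 mesoderm genes tested of 20, 5 fell and 1 rose. The riser was KDR, the receptor for vascular growth factors, at 3.43, 6.01 and 3.72 CPM against 13, 24.5 and 12.6 CPM (1.92 ± 0.26), where replicate 2 was the highest in each group. SNAI2, a repressor that drives the epithelial to mesenchymal transition, read 13.8, 14 and 14.6 CPM in 1/7MC, 19.6, 15.2 and 16.8 CPM with pyruvate and 6.35, 6.04 and 8.08 CPM with both (-1.05 ± 0.14). TBX2, a T-box repressor, fell by 2.67 ± 0.20, less far than with pyruvate alone (-3.99 ± 0.22), and it was higher with FGF added to pyruvate by 1.32 ± 0.24 (adjusted p = 0.0089).

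Fibroblast and feeder markers were lower in part. Of 35 tested 13 fell and 2 rose, with a median of -0.28. COL1A1, the main chain of type I collagen, read 4828, 6706 and 3986 CPM in 1/7MC and 3508, 6492 and 5918 CPM with both additions (0.04 ± 0.27), and the groups overlapped. PRRX1, a homeobox factor of mesenchyme, read 29.6, 29.9 and 25.9 CPM and 5.91, 8.09 and 8.68 CPM (-1.92 ± 0.15). POSTN, the matrix protein periostin, read 459, 597 and 420.3 CPM and 232, 200.1 and 235 CPM (-1.15 ± 0.13). Both were lower in each supplemented library than in any 1/7MC library, and both fell again between 1/7MC+Pyr and 1/7MC+Pyr+FGF (by 0.95 ± 0.15 and 0.65 ± 0.13), the latter not without 1/7MC+Pyr replicate 1 or 3. FAP, a surface protease of activated fibroblasts (-3.13 ± 0.32), PDGFRA, the receptor for platelet-derived growth factor (-1.86 ± 0.23), and BGN, a small proteoglycan (-1.37 ± 0.17), also fell. LUM, another small proteoglycan, rose by 0.66 ± 0.12. COL6A3, a type VI collagen chain, was at 73.8, 116 and 64.2 CPM, 300.1, 167 and 236 CPM and 48.9, 84.4 and 76.1 CPM in 1/7MC, 1/7MC+Pyr and 1/7MC+Pyr+FGF. Its 1/7MC+Pyr libraries were the highest, and it did not pass against 1/7MC (-0.28 ± 0.25). With FGF added to pyruvate 2.85% of all genes were lower and 0.719% higher. Of the 35 markers 8 were lower in this step and 1 was higher, with a median of -0.33. Their summed level was 28545 to 38638 CPM in 1/7MC, 33290 to 48873 CPM in 1/7MC+Pyr and 23413 to 31477 CPM in 1/7MC+Pyr+FGF, so the 2 supplemented groups did not overlap in it. The shorter set of 10 fibroblast and feeder markers summed to 14500 to 23700 CPM in 1/7MC+Pyr and 10375 to 14574 CPM in 1/7MC+Pyr+FGF. In that sum the supplemented groups overlapped.

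Epithelial and junction genes moved in both directions, with 9 of 29 higher, 7 lower and a median of 0.01. The keratin pair of simple epithelia led the rises: KRT8 read 494, 400 and 525 CPM and 1326, 1136 and 1220.5 CPM (1.38 ± 0.13), and KRT18 read 246, 203 and 272 CPM and 800.1, 587 and 625 CPM (1.48 ± 0.14). Both keratins were higher again with FGF added to pyruvate, by 0.62 ± 0.12 and 0.91 ± 0.14, the KRT8 call being lost without 1/7MC+Pyr replicate 1 or 3. OCLN, a tight junction protein (0.88 ± 0.11), and CLDN4, a claudin (1.42 ± 0.20), rose as well. EPCAM, an adhesion molecule of epithelial and embryonic stem cells, fell, at 19, 16 and 18 CPM in 1/7MC, 20.6, 20.2 and 21.8 CPM with pyruvate and 10.2, 10.9 and 8.68 CPM with both (-0.83 ± 0.12, adjusted p = 2.4e-04). CDH1, the adherens junction protein E-cadherin, was 115, 145 and 101 CPM in 1/7MC and 103, 143 and 100 CPM with both (-0.06 ± 0.17), but 254, 188 and 226 CPM with pyruvate alone, above every other library. The number of members lower fell to 3 without 1/7MC replicate 1 and to 4 without 1/7MC replicate 3, 1/7MC+Pyr+FGF replicate 1 or 1/7MC+Pyr+FGF replicate 3.

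Cholesterol and fatty acid synthesis was the list with the highest share of members called: 26 of 29 tested rose, with a median of 0.90. None fell by edgeR or DESeq2, with 0 at an unadjusted p under 0.05. In the order of the pathway, HMGCS1, which joins acetyl-CoA units into HMG-CoA, read 526, 498 and 544 CPM in 1/7MC, 697, 927 and 896 CPM with pyruvate and 1626, 1560.5 and 1256 CPM with both (1.50 ± 0.14, adjusted p = 5.7e-06). The 3 groups did not overlap in this enzyme, with pyruvate alone in between. IDI1 and FDPS, of isoprenoid synthesis, rose by 0.94 ± 0.12 and 1.10 ± 0.14, and FDFT1, which makes squalene, by 0.90 ± 0.12. Of the later steps, SQLE, squalene epoxidase (1.12 ± 0.12), CYP51A1, lanosterol demethylase (1.13 ± 0.13), MSMO1 (1.14 ± 0.10) and NSDHL (1.03 ± 0.10), which remove methyl groups from sterols, and DHCR7, the last reductase (1.20 ± 0.17), rose too. INSIG1, which holds the sterol-sensing complex in the endoplasmic reticulum, rose by 1.04 ± 0.14.

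The rise of this list was spread over both additions. With pyruvate alone 19 of the 29 were higher, with a median of 0.43, and with FGF added to pyruvate 11 were higher, with a median of 0.40, where 0.719% of all genes were higher and 2.85% lower. These comparisons share the 1/7MC+Pyr libraries. Members that rose in the last of these include HMGCS1 (0.82 ± 0.14), NSDHL (0.60 ± 0.10) and MSMO1 (0.56 ± 0.10). The fatty acid enzymes FASN, fatty acid synthase, and SCD, a desaturase, did not pass there (-0.09 ± 0.15 and 0.09 ± 0.16). Of the transcription factors that drive the pathway, SREBF1 was at -0.04 ± 0.16 and did not pass with both additions. SREBF2 read 377, 446 and 366 CPM and 426, 669 and 549 CPM (0.47 ± 0.17, adjusted p = 0.058), so it missed the threshold, which it passed with DESeq2, with no filter on low counts and without 1/7MC+Pyr replicate 1 or 2 or 1/7MC+Pyr+FGF replicate 1. ACSS2, the acetate-activating enzyme named above, is no member of the list and read 50.8, 46 and 52.4 CPM, 86.6, 89.1 and 92.1 CPM and 179, 192 and 146 CPM over the 3 groups.

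**Figure D3:**
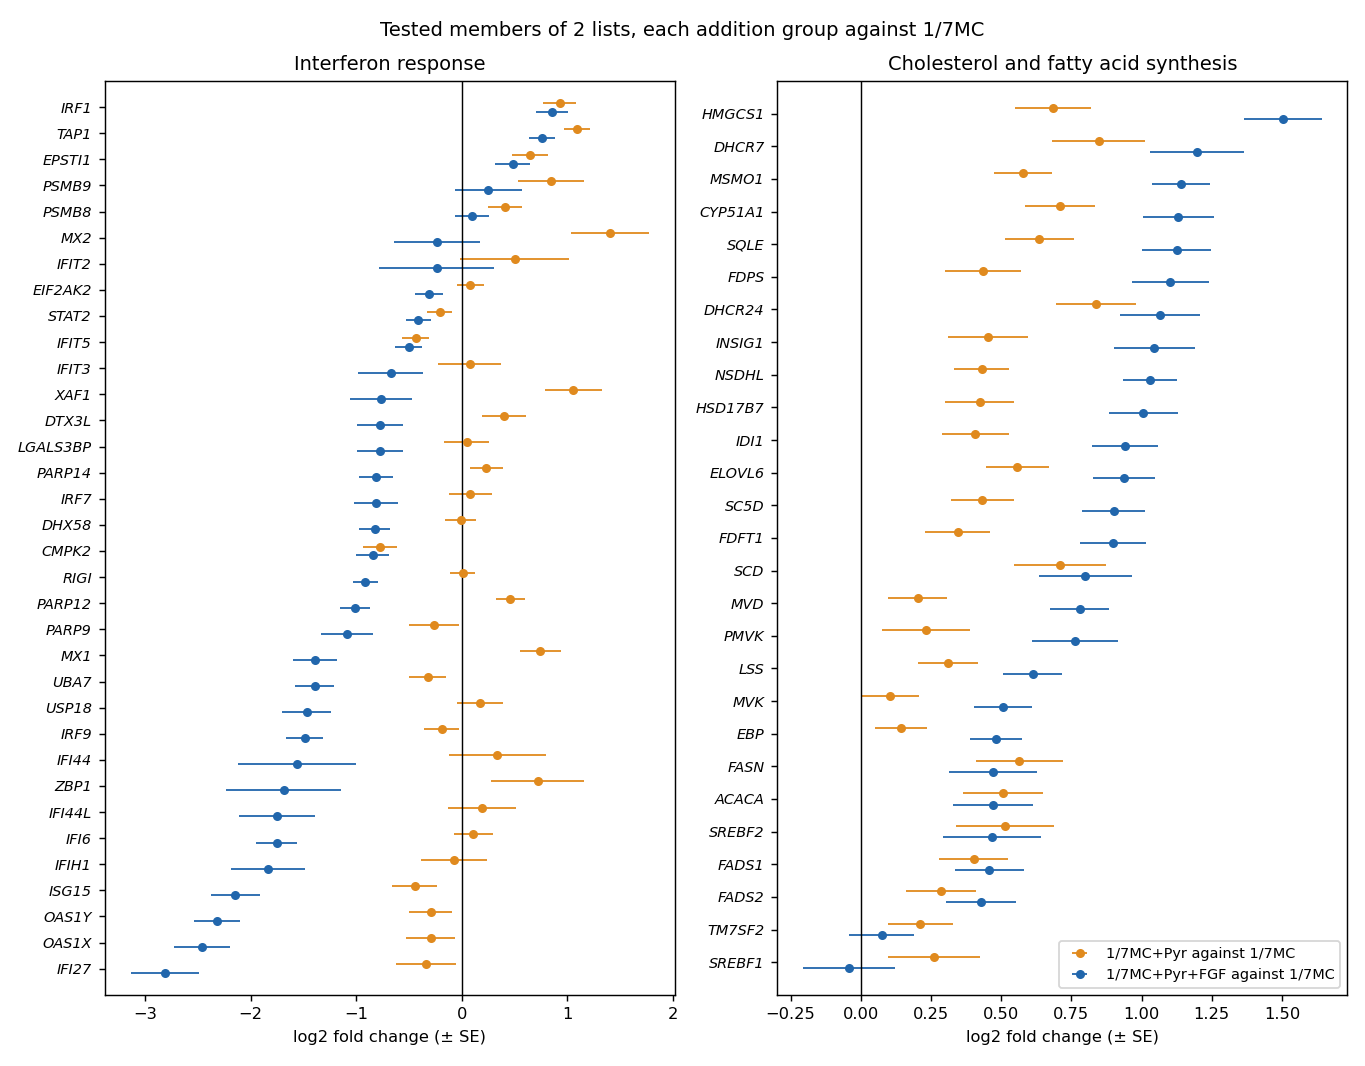
Log2 fold changes with standard errors for tested members of the interferon response (left, 34 of 35 genes drawn) and of cholesterol and fatty acid synthesis (right, 27 of 29 genes drawn), in 1/7MC+Pyr against 1/7MC (orange) and in 1/7MC+Pyr+FGF against 1/7MC (blue). Most interferon genes lie near 0 with pyruvate and below 0 with both additions (medians over all 35 of 0.08 and -0.82), while most sterol genes lie above 0 in both (medians over all 29 of 0.43 and 0.90).

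Genes that take up, make or use pyruvate changed in a few named places. Of 25 tested 5 rose and 4 fell, with a median of 0.21, where 12.1% of all genes rose and 17.5% fell. PDK4, a kinase that shuts down pyruvate dehydrogenase, read 1.18, 0.715 and 1.96 CPM in 1/7MC and 0.140, 0.121 and 0.226 CPM with both additions, a fall of 2.96 ± 0.48 that rests on 130 counts against 18 over 3 libraries each. SLC16A1, the monocarboxylate transporter that carries pyruvate and lactate, went from 207, 229.5 and 202 CPM to 360.1, 426 and 334 CPM (0.81 ± 0.11). PDK1 (-0.55 ± 0.14) and LDHA, lactate dehydrogenase (-0.58 ± 0.15), fell, and neither passed without 1/7MC replicate 3 (adjusted p = 0.064 and 0.052). Without that library 1 member was lower and 3 were higher, without 1/7MC replicate 1 a single member was higher, and without 1/7MC replicate 2 or 1/7MC+Pyr+FGF replicate 1 the number higher was 3. MPC1, which forms part of the carrier that brings pyruvate into mitochondria, was at 36, 34.4 and 39.6 CPM, 19.3, 25.7 and 22 CPM and 30.7, 25.7 and 30.2 CPM over the 3 groups; it was lowest with pyruvate alone and did not pass with both (-0.35 ± 0.12, adjusted p = 0.052).

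Of 22 glycolysis genes 3 rose, with PFKP, a phosphofructokinase, at 0.53 ± 0.11 and HK1, a hexokinase, at 0.40 ± 0.10, and 2 fell, or at most 1 without any 1 of the 1/7MC libraries, 1/7MC+Pyr replicate 2 or 3 or 1/7MC+Pyr+FGF replicate 2 or 3. GAPDH was at 0.06 ± 0.12 and did not pass. Over all genes tested, 12.1% rose and 17.5% fell. Of 20 genes of the tricarboxylic acid cycle and citrate export 5 rose, led by ACLY, which splits exported citrate into acetyl-CoA (574, 560.2 and 567 CPM against 860.2, 991 and 811 CPM, 0.65 ± 0.11). Only 1 rose without 1/7MC replicate 1 or replicate 2, and 2 without 1/7MC replicate 3, 1/7MC+Pyr replicate 3 or 1/7MC+Pyr+FGF replicate 3. Of 46 nuclear genes of oxidative phosphorylation 2 rose, but 7 did without 1/7MC+Pyr+FGF replicate 2, 1 without 1/7MC+Pyr replicate 2 or 3 and 0 without 1/7MC+Pyr+FGF replicate 1 or any 1 of the 1/7MC libraries. Of the 13 mitochondrially encoded ones 4 rose, or 7 without 1/7MC replicate 2 or 1/7MC+Pyr+FGF replicate 1 and 2 without 1/7MC replicate 1 or 3. No gene of these 3 lists fell by edgeR or DESeq2, with 0 at an unadjusted p under 0.05.

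Serine synthesis and amino acid stress genes rose in 15 of 26, with a median of 0.43, and 1 fell, a call that was lost without 1/7MC replicate 1 or 3, 1/7MC+Pyr replicate 1 or 3 or 1/7MC+Pyr+FGF replicate 2 or 3. TRIB3, a pseudokinase induced by amino acid stress, read 1.65, 1.77 and 2.19 CPM and 5.42, 6.61 and 3.65 CPM (1.48 ± 0.23). SLC7A3, a transporter of cationic amino acids (0.69 ± 0.11), SESN2, a stress-induced inhibitor of mTORC1 (0.59 ± 0.11), and PSPH, the last enzyme of serine synthesis (0.68 ± 0.13), rose too, whereas the stress factor ATF4 itself did not pass (0.20 ± 0.11). PSAT1, an aminotransferase of serine synthesis, was 52.2, 42.3 and 53.2 CPM in 1/7MC, 18.6, 24.9 and 20 CPM with pyruvate and 41.7, 34.6 and 40 CPM with both. It was lowest with pyruvate alone, rose with FGF added by 0.87 ± 0.14 (adjusted p = 0.0037), and did not pass with both against neither (-0.34 ± 0.13), though it did without 1/7MC replicate 2 or 1/7MC+Pyr replicate 2. Of 19 NRF2-linked redox genes 9 rose, or 5 without 1/7MC replicate 2, among them GSR, glutathione reductase (0.70 ± 0.12), HMOX1, heme oxygenase (0.69 ± 0.12), and TXNRD1, thioredoxin reductase (0.60 ± 0.10). Of 31 cell cycle genes 13 rose, such as CCNE1, cyclin E (0.51 ± 0.10), and 1 fell. The number higher was 5 to 8 without 1/7MC replicate 1, 2 or 3, 1/7MC+Pyr replicate 3 or 1/7MC+Pyr+FGF replicate 1 or 3. The fall was lost in these cases other than without 1/7MC+Pyr+FGF replicate 1, and without 1/7MC+Pyr+FGF replicate 2.

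The usual target genes of FGF and ERK signalling were not higher as a list with both additions. Of 26 tested 4 rose and 8 fell, with a median of -0.17. With pyruvate alone 5 were already higher and 6 lower (median -0.13), beside 8.59% and 11.1% of all genes. SPRY2 and SPRY4, feedback inhibitors of receptor tyrosine kinases, read 146, 153 and 139 CPM against 124, 141 and 133 CPM (-0.14 ± 0.09) and 58, 62.2 and 47 CPM against 55.5, 104 and 55.5 CPM (0.36 ± 0.20), and neither passed. ETV4 and ETV5, ETS factors downstream of ERK, were at -0.29 ± 0.14 and 0.28 ± 0.14 and did not pass. DUSP6, the phosphatase that inactivates ERK, read 185, 201 and 185 CPM and 146, 173 and 153 CPM (-0.27 ± 0.10, adjusted p = 0.049), and this call was lost without any 1 of the 1/7MC libraries, 1/7MC+Pyr replicate 2 or 3 or 1/7MC+Pyr+FGF replicate 1 or 3. SPRY1 (-0.78 ± 0.12), PHLDA1 (-0.63 ± 0.11) and SPRED3 (-1.13 ± 0.21), of the same feedback class, and MYC (-0.73 ± 0.14) fell, and DUSP5, another ERK phosphatase, rose by 0.99 ± 0.18. With FGF added to pyruvate 1 of the 26 was lower, PLAUR, the urokinase receptor (-1.36 ± 0.18), and the median was -0.05. None was higher, with 2 at an unadjusted p under 0.05 and 1 by DESeq2. In this step 2.85% of all genes were lower and 0.719% higher, so these counts are near the shares of all genes. Of ligands and receptors, FGF2 read 11.3, 11.1 and 11.4 CPM and 7.85, 9.93 and 7.94 CPM (-0.40 ± 0.16), and FGFR1 was at 0.33 ± 0.13. Neither passed.

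TGF-beta ligands and response genes were lower. Of 16 tested 9 fell and 1 rose, with a median of -0.59, against 0.03 with pyruvate alone. With FGF added to pyruvate 6 were lower and 1 was higher, beside 2.85% and 0.719% of all genes. In this step the 35 summed fibroblast and feeder markers were lower too, and their part in the result was not tested. PMEPA1, a feedback inhibitor induced by TGF-beta, read 176, 234 and 178 CPM in 1/7MC, 201, 157 and 173 CPM with pyruvate and 63.5, 82.1 and 86.6 CPM with both (-1.34 ± 0.15, adjusted p = 2.4e-05). CDKN2B, a cell cycle inhibitor induced by the pathway, read 67.4, 91.9 and 83.7 CPM, 95.5, 82.8 and 91.6 CPM and 37.5, 29.6 and 48.7 CPM (-1.07 ± 0.16). In both, the libraries with both additions lay below the other 6, which overlapped. The ligands TGFB1 and TGFB3 fell by 0.89 ± 0.16 and 0.80 ± 0.14. BAMBI, a decoy receptor, went a different way, at 56.8, 58.3 and 67.4 CPM, 9.20, 11.3 and 10.1 CPM and 19.3, 17.1 and 27.8 CPM: it fell with both additions (-1.51 ± 0.16), but was higher than with pyruvate alone by 1.07 ± 0.17 (adjusted p = 0.0040). TGIF1, a repressor of the pathway, was the member that rose (0.53 ± 0.10), and 2 rose without 1/7MC replicate 2 or 1/7MC+Pyr replicate 1 and 3 without 1/7MC+Pyr+FGF replicate 1.

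BMP ligands and response genes fell in 9 of 15 (median -0.53). None rose by edgeR or DESeq2, with 1 at an unadjusted p under 0.05, and 1 rose without 1/7MC+Pyr+FGF replicate 1. SMAD9, a BMP signal transducer, read 24.3, 32.8 and 28 CPM and 6.10, 4.22 and 8.82 CPM (-2.15 ± 0.21). BMP7 (-1.10 ± 0.13), ID2, a BMP target that blocks helix-loop-helix factors (-1.18 ± 0.17), and NOG, the antagonist noggin (-0.71 ± 0.17), were lower, as they were with pyruvate alone (-0.90 ± 0.13, -1.26 ± 0.17 and -0.88 ± 0.18). BMP2, a further ligand, read 3.33, 2.99 and 2.85 CPM, 3.18, 3.70 and 2.23 CPM and 1.24, 0.996 and 1.72 CPM over the 3 groups (-1.21 ± 0.25). In the WNT list 8 of 17 fell, or 5 without 1/7MC+Pyr+FGF replicate 1, and 1 rose. LGR5, a receptor of stem cells and a WNT target, read 11.9, 17.8 and 13.7 CPM and 1.03, 1.06 and 0.876 CPM (-3.87 ± 0.21). DKK1, a secreted WNT inhibitor, read 15.6, 19.1 and 18.8 CPM, 3.62, 3.24 and 2.80 CPM and 8.83, 6.55 and 8.93 CPM, so that its fall with both (-1.14 ± 0.15) was smaller than with pyruvate, and the difference passed (1.33 ± 0.17, adjusted p = 9.1e-04). SFRP1, an extracellular antagonist, was the riser (1.26 ± 0.13), and LEF1, a transcription factor of the pathway, fell by 1.15 ± 0.16.

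The interferon response was lower with both additions. Of 40 genes listed 35 were tested, of which 24 fell and 3 rose, with a median of -0.82. With pyruvate alone the median was 0.08, with 2 lower and 7 higher, beside 11.1% and 8.59% of all genes. With FGF added to pyruvate 20 were lower, beside 2.85% of all genes. The 35 summed fibroblast and feeder markers were lower in this step too, and their part in the result was not tested. None of the interferon genes was higher by edgeR or DESeq2, with 0 at an unadjusted p under 0.05. ISG15, a ubiquitin-like modifier induced by type I interferon, read 12.2, 12.5 and 16.4 CPM in 1/7MC, 11, 10.1 and 9.04 CPM with pyruvate and 2.97, 1.93 and 4.38 CPM with both (-2.14 ± 0.23, adjusted p = 2.0e-05). IFI27, a membrane protein of the same programme, read 6.94, 6.83 and 10.2 CPM, 6.67, 6.37 and 5.99 CPM and 1.05, 0.453 and 1.89 CPM (-2.81 ± 0.33). IFI6, a survival factor of interferon-treated cells, read 8.35, 9.71 and 9.77 CPM, 9.64, 11.8 and 8.54 CPM and 2.85, 1.96 and 3.42 CPM (-1.75 ± 0.20). In all 3 genes the libraries with both additions were below the other 6, and within them replicate 2 was the lowest and replicate 3 the highest. OAS1X and OAS1Y, sensors of double-stranded RNA, fell by 2.46 ± 0.26 and 2.32 ± 0.22; they are close paralogs whose reads may be split between them.

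The fall reached sensors and regulators as well as effectors. IRF9, the DNA-binding subunit of the interferon-activated complex, read 12.6, 13.6 and 13.1 CPM and 4.53, 4.44 and 5.06 CPM (-1.49 ± 0.17). RIGI, a cytoplasmic RNA sensor, read 17.5, 18.7 and 16.5 CPM and 9.42, 8.24 and 10.3 CPM (-0.91 ± 0.12). USP18, which removes ISG15 from proteins, fell by 1.47 ± 0.23 and IFIH1, a second RNA sensor, by 1.83 ± 0.35. MX1, an antiviral GTPase, was higher with pyruvate alone (0.74 ± 0.19, a call lost without 1/7MC replicate 1 or 2 or 1/7MC+Pyr replicate 1) and lower with both (-1.39 ± 0.21). Against the list, IRF1, a regulator that interferon gamma also induces, rose from 7.68, 6.19 and 8.64 CPM to 14.6, 14.8 and 11.4 CPM (0.86 ± 0.15), and TAP1, a peptide transporter for antigen presentation, rose by 0.76 ± 0.12. With pyruvate alone they had risen too (0.93 ± 0.15 and 1.09 ± 0.12). EPSTI1 also rose, but not without any 1 of the 1/7MC libraries, 1/7MC+Pyr replicate 1 or 3 or 1/7MC+Pyr+FGF replicate 1 or 3.

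Receptors and JAK kinases of the interferon pathway fell in 5 of 7. None rose by edgeR or DESeq2, with 0 at an unadjusted p under 0.05. IFNGR2, the signalling chain of the interferon gamma receptor, read 34.5, 34 and 37.4 CPM in 1/7MC, 28.6, 31.6 and 28.8 CPM with pyruvate and 16.7, 14.9 and 21.2 CPM with both (a fall of 1.00 ± 0.13). JAK1 read 114, 117 and 115 CPM and 73.3, 79.5 and 80.6 CPM (-0.57 ± 0.09), and TYK2 fell by 0.61 ± 0.12. IFNAR2, a chain of the type I interferon receptor, fell by 2.83 ± 0.53 but is a low gene, with 54 counts over the 1/7MC libraries, 46 with pyruvate and 8 with both. The 10 endothelial and blood markers summed to 14.7 to 18.1 CPM in 1/7MC and 28.6 to 37.8 CPM with both additions, with TEK and VWF of endothelium as the members that carried the higher sum. The markers of white blood cells PTPRC, SPI1 and LYZ were at 0.509 CPM or less in every library. CD68 and CSF1R, also markers of white blood cells, read 0.539 to 2.09 CPM and 0.421 to 1.68 CPM. The part of these markers in the interferon result was not tested.

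Imprinted and growth factor genes held some of the larger falls among abundant transcripts. IGF2, a fetal growth factor, read 539, 634 and 495 CPM in 1/7MC, 239, 168 and 184 CPM with pyruvate and 87.4, 106 and 142 CPM with both (-2.31 ± 0.18), and it fell further between the supplemented groups (-0.81 ± 0.18, adjusted p = 0.023), a call that was lost without 1/7MC+Pyr replicate 1, 1/7MC+Pyr replicate 3 or 1/7MC+Pyr+FGF replicate 1. PEG10, a paternally expressed gene of placenta, read 544, 624 and 489 CPM, 123, 152 and 125 CPM and 165, 190 and 232 CPM (-1.50 ± 0.14). Each supplemented library was below every 1/7MC library in both. MEST (-1.02 ± 0.17), CDKN1C, a cell cycle inhibitor (-1.18 ± 0.21), and DLK1, a Notch-like ligand (-1.02 ± 0.20), fell too. Of 11 imprinted genes tested 5 were lower and 2 were higher, SNRPN (0.35 ± 0.10) and PLAGL1 (0.36 ± 0.11), and the median was -0.12. Leaving out 1/7MC replicate 1 left 0 of them higher, and leaving out either of the other two 1/7MC libraries, or 1/7MC+Pyr+FGF replicate 2 or 3, left 1. With FGF added to pyruvate PEG10, PLAGL1 and NAP1L5 were higher (0.55 ± 0.14, 0.48 ± 0.11 and 0.63 ± 0.13) and IGF2 was lower. All 3 of these rises were lost when 1/7MC+Pyr replicate 1 was left out. PEG10 and PLAGL1 were lost with 1/7MC+Pyr replicate 3 or 1/7MC+Pyr+FGF replicate 3 left out too, PEG10 with 1/7MC replicate 1 or 3, PLAGL1 with 1/7MC+Pyr+FGF replicate 2 and NAP1L5 with 1/7MC+Pyr+FGF replicate 1. Of 9 genes of the insulin and IGF system 5 fell, among them IGFBP5, a binding protein (-1.78 ± 0.19), and 1 rose, IGFBP3, another (1.06 ± 0.11).

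Immediate early and heat shock genes went in both directions, with 6 of 21 higher and 5 lower. The transcription factors FOS (-1.20 ± 0.17) and JUNB (-1.44 ± 0.16) fell, and the chaperones HSPA1A (1.04 ± 0.10) and HSPH1 (0.69 ± 0.10) and the stress factor ATF3 (1.04 ± 0.17) rose. Of 17 hypoxia genes tested 3 rose and 5 fell, where 12.1% of all genes rose and 17.5% fell. EGLN3, an oxygen-sensing hydroxylase, read 110.1, 103 and 111 CPM and 291, 269 and 301 CPM (1.41 ± 0.10), with no overlap. BHLHE40, a clock and hypoxia repressor, read 44.4, 52.4 and 48.6 CPM, 52.3, 44.1 and 49.5 CPM and 18.7, 20.9 and 25 CPM over the 3 groups (-1.17 ± 0.13).

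To list the genes that changed only with both additions, 3 conditions were set: an adjusted p under 0.05 for both against neither, an adjusted p of at least 0.05 for pyruvate against neither, and an adjusted p under 0.05 in the same direction for both against pyruvate. Of the 13770 genes, 227 met all 3 (1.65%), of which 38 rose (0.276%) and 189 fell (1.37%). For reference, 2706 genes (19.7%) differed with pyruvate alone and 491 (3.57%) between the 2 supplemented groups, 99 higher and 392 lower. As no group had FGF alone, these genes cannot be called a joint effect as opposed to an effect of FGF, and a missed threshold with pyruvate does not show that pyruvate had no effect. For 85 of the 227 the 95% interval of the pyruvate change lay within 0.5 on either side of 0 (24 of those that rose and 61 of those that fell). The median with both additions was -0.90 among those that fell and 0.66 among those that rose, which the choice of genes fixes in sign. The count depended on single libraries: leaving out 1/7MC+Pyr replicate 1 gave 91 genes, leaving out 1/7MC+Pyr replicate 3 gave 127, and leaving out 1/7MC+Pyr+FGF replicate 1 gave 109. The number that rose was 14, 18 and 24 in these cases and 96 without 1/7MC+Pyr+FGF replicate 2. The count between the supplemented groups was 166, 230 and 248 in these cases, and 738 once 1/7MC+Pyr+FGF replicate 2 was left out, of which 223 were higher. The count with pyruvate alone was 1799 and 1708 when 1/7MC replicate 1 or 3 was left out, in that order, and 1622 when 1/7MC+Pyr replicate 3 was. Of the 227, 1 gene was among the 35 tested of the fibroblast and feeder list, a fall, beside 1.37% of all genes. It was FBN1, a matrix fibrillin, which left the set when 1/7MC replicate 2, 1/7MC+Pyr replicate 1 or 3 or 1/7MC+Pyr+FGF replicate 1 or 3 was left out. Matrix genes outside this list fell in the set too, such as HTRA1, COL8A2, ITGA11, ADAM12 and MFAP4. The summed level of the 35 genes was also lower with both additions than with pyruvate. The part of fibroblasts and feeders in the count was not tested.

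Of the 227 genes, 51 met the 3 conditions under each of 17 alternatives to the fit, 46 that fell and 5 that rose. Interferon genes made up 10 of the 46: ISG15, IFI27, IFI6, OAS1X, OAS1Y, USP18, RIGI, UBA7, PARP14 and IFNGR2. Other members that fell had roles in TGF-beta signalling (PMEPA1, CDKN2B and TGFB3), in epithelial adhesion and transition (EPCAM and SNAI2) and in transcription (BHLHE40, RUNX1, BCL6, MAF and TRPS1). Genes of matrix and its processing fell too, among them HTRA1 (-1.72 ± 0.16), COL8A2 (-1.67 ± 0.23), PLOD2 (-1.15 ± 0.13), MMP11 and CTHRC1. RUNX1, a factor of blood and mesenchyme, read 11.4, 15.7 and 11.1 CPM, 17.3, 15.6 and 16.1 CPM and 3.69, 7.21 and 7.29 CPM in the order none, pyruvate, both (-1.08 ± 0.22). NFKBIZ, a nuclear regulator of NF-kappaB targets, read 7.85, 10.2 and 8.90 CPM, 11, 8.75 and 11.5 CPM and 2.62, 3.11 and 3.76 CPM (-1.51 ± 0.18). KIT, the receptor for stem cell factor, fell by 0.55 ± 0.14. In RUNX1 and NFKBIZ the 1/7MC and 1/7MC+Pyr libraries overlapped and all 3 libraries with both additions lay below them. The 5 that rose were PTGFR, the receptor for prostaglandin F (1.26 ± 0.17), WNT2B, a WNT ligand (1.00 ± 0.15), APOA1, an apolipoprotein (298, 297 and 295 CPM, 325, 293 and 304 CPM and 555, 509 and 495 CPM, 0.81 ± 0.10), KLHL13, a ubiquitin ligase adaptor (0.67 ± 0.10), and CA2, carbonic anhydrase (0.66 ± 0.14). The roles named here were chosen after the values were seen.

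Among those of the 227 with at least 1 CPM in the highest group, the largest rises were SPDYC, a cell cycle activator of the Speedy family (2.54 ± 0.45), ADM, the peptide adrenomedullin (1.56 ± 0.25), TRIB3, GNA14, a G protein subunit (1.47 ± 0.26), PTGFR, HPDL (1.12 ± 0.15), FAR2, which makes fatty alcohols (1.05 ± 0.13), and ACAT2, which makes acetoacetyl-CoA at the start of sterol synthesis. ACAT2 read 196, 179.6 and 201 CPM in 1/7MC, 216, 241 and 241 CPM with pyruvate and 396, 398 and 361 CPM with both (1.00 ± 0.10), and its change with pyruvate missed the threshold at 0.28 ± 0.10 (adjusted p = 0.069). The sterol enzymes FDFT1 and MVD met the same conditions, with pyruvate changes of 0.34 ± 0.12 (adjusted p = 0.054) and 0.20 ± 0.11. The largest falls under the same limit were the interferon genes IFI27, OAS1X, OAS1Y, ISG15 and IFIH1, together with GBP5, a guanylate-binding protein that interferon gamma induces (-1.96 ± 0.29), MINAR1 (-2.16 ± 0.46) and PODNL1, a matrix protein (-1.80 ± 0.47). Of the 35 interferon genes tested 16 were in the set, of the 16 TGF-beta genes 5, and of the 29 sterol and fatty acid genes 2. The remaining lists had from 0 to 4 each. Of all genes tested 1.65% were in the set, 0.276% as rises and 1.37% as falls. Of these largest changes, SPDYC was kept in 9 of the 17 alternatives, GBP5 in 7, TRIB3 in 10, ADM, GNA14, FAR2 and IFIH1 in 12, MINAR1 in 13, PODNL1 in 14 and ACAT2 and HPDL in 15.

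**Figure D4:**
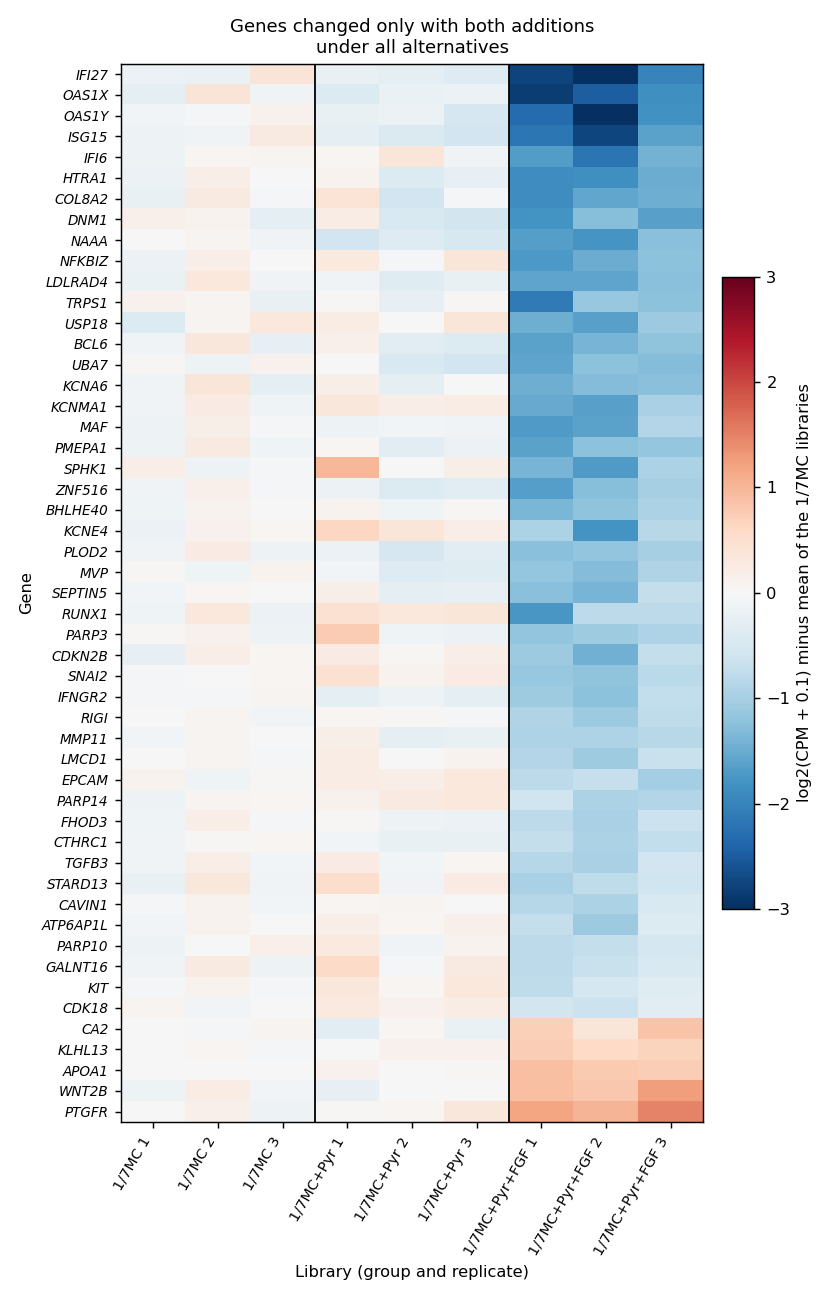
Level of the 51 genes that changed only with both additions under all 17 alternatives, as log2(CPM + 0.1) minus the mean of the 1/7MC libraries, in each of 9 libraries (columns, grouped by condition); blue is lower and red is higher. The 1/7MC+Pyr libraries stay near the 1/7MC libraries, while the 3 libraries with both additions are lower in 46 genes and higher in 5, as the choice of genes requires.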

How the data were processed

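Bulk RNA was sequenced from bovine embryonic stem cells of line F7. The authors deposited a table of raw read counts per gene, and the submitters' processing notes name fastp 0.19.7, HISAT2 2.1.0, Subread 2.0, featureCounts and the build bosTau9. A second deposited table, named as TPM, did not hold TPM values and was not used. The library kit is not stated to keep strand, so reads of overlapping or antisense genes cannot be told apart.

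Entries sharing an Ensembl or Entrez identifier were dropped, and symbols came from the RefSeq gene table, matched on the Entrez identifier of the count table. The fit in edgeR 4.0.16 (R 4.3.3) used TMM scaling, filterByExpr and a quasi-likelihood test with 1 coefficient for each of the 3 groups over 9 libraries, with Benjamini-Hochberg adjustment over all 13770 genes tested. MC was left out because 53 of 61 shared Entrez identifiers had differing counts between their entries in 2 MC libraries and 0 in the other 10 libraries. Those 2 libraries seem to have been counted with other gene models. CPM used TMM-scaled library sizes. Total counts, 28762910 to 44440972 per library, set the counting precision. The script was tested on simulated data. The labels name no batch. Genes were named by rule: the 10 largest changes each way among genes past the threshold and at least 1 CPM in the higher group, the 5 smallest p each way, the 8 largest only-with-both changes each way, up to 5 per list and a panel of 24. Others were chosen after their values were seen. The members and the 35 lists were chosen with earlier results of these data known. Alternatives used DESeq2 1.42.0, other size factors, filters, library sets and a replicate block. A search of promoters for motifs was not run. A few list members counted in the totals are not reported here by name.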

Additional observations from a re-analysis of the deposited data

How the results depend on the processing

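The total number of genes changed with both additions kept within 1.5 times of 4068 under every alternative run, from 2912 to 4585. In this comparison 0 of 364 named genes reversed direction in 6170 pairs of gene and alternative, of which 319 lost and 39 gained a call. Reversals in the other comparisons were not tallied. The smaller counts moved more, and the cause was not tested. Between the supplemented groups the 491 genes became 984 with DESeq2, 324 in a fit of those 2 groups alone and 199 with the replicate number as a block, and 166 to 738 without 1 library. Genes changed only with both became 436, 144 and 102 in the same 3 settings, and 91 to 323 without 1 library. They became 65 with at least 1 on the log2 scale in both comparisons. Requiring an unadjusted p of at least 0.05 with pyruvate gave 194. The 2706 genes changed with pyruvate alone became 1622 to 3158 without 1 library.

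With at least 1 CPM required in 3 libraries, which leaves fewer genes in each list, the median of the trophectoderm list changed sign from -1.49 to 0.57. Other list medians moved to -0.64 for BMP, 0.68 for endothelial and blood, -0.12 for FGF ligands and receptors, -0.34 for the IGF system, 0.20 for immediate early and heat shock, -0.35 for mesoderm and -0.63 for naive genes. Leaving out 1 library each gave medians of -0.64 to -0.49 for BMP, 0.11 to 0.57 for endothelial and blood, -0.38 to -0.029 for FGF ligands and receptors, -0.17 to -0.042 for hypoxia, 0.066 to 0.19 for immediate early and heat shock, -0.96 to -0.81 for interferon, -0.61 to -0.43 for mesoderm, -0.59 to -0.20 for naive, 0.20 to 0.38 for NRF2, -0.11 to 0.021 for p53, 0.19 to 0.28 for primed, 0.35 to 0.49 for serine and -0.56 to -0.33 for WNT genes.

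The correlations of the deviations of same-numbered libraries were 0.24, 0.35 and 0.02 between 1/7MC and 1/7MC+Pyr+FGF, -0.08, -0.26 and 0.0052 between 1/7MC and 1/7MC+Pyr, and -0.33, -0.34 and -0.07 between the supplemented groups, and 3 of 9 libraries correlated best with their own number, so the numbers were not taken as pairs. With the replicate block 3470 genes changed with both additions. Depth limits low genes: IFNAR2 had 8 counts over the 3 libraries with both additions.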

Other observations

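Integrins, the receptors that anchor cells to matrix, moved in both directions with both additions: 7 of 17 tested fell and 4 rose. ITGA4, a partner of the fibronectin and VCAM1 receptor, read 4.78, 4.71 and 4.12 CPM in 1/7MC and 0.327, 1.06 and 0.622 CPM with both (-2.79 ± 0.33). ITGA8 (-1.95 ± 0.21), ITGA1 (-1.49 ± 0.17) and ITGA11 (-1.62 ± 0.24), the last 2 being collagen receptors, were lower as well. ITGA5, of the classical fibronectin receptor, rose from 93.4, 118 and 82.8 CPM to 169.5, 286 and 192 CPM (1.14 ± 0.20), and ITGA6, a laminin receptor chain, rose by 0.91 ± 0.14. The groups did not overlap in ITGA4 or ITGA5, and the number of rises was 2 once 1/7MC replicate 1 or 3 or 1/7MC+Pyr+FGF replicate 2 was left out. Of 13 matrix proteases and inhibitors 3 rose and 3 fell, or 1 fell without 1/7MC replicate 2. MMP3 read 1.18, 0.635 and 1.15 CPM and 8.99, 14.7 and 7.83 CPM, and MMP13, a collagenase, rose by 2.21 ± 0.27, while ADAM12, a membrane protease, fell by 1.63 ± 0.27.

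Among trophectoderm genes 5 of 8 tested fell and 2 rose. GATA3, a factor of trophectoderm and other tissues, read 9.26, 11.2 and 9.05 CPM, 2.60, 2.52 and 1.98 CPM and 2.50, 2.41 and 5.23 CPM in 1/7MC, 1/7MC+Pyr and 1/7MC+Pyr+FGF (-1.55 ± 0.25), and GATA2 fell by 1.93 ± 0.41. KRT7, a keratin of trophoblast, rose by 0.87 ± 0.17. Of the FGF ligands, FGF8 (-1.56 ± 0.55), FGF18 (-1.20 ± 0.42), FGF1 (-1.04 ± 0.31) and FGF10 (-0.87 ± 0.17) were lower and FGF13, an intracellular relative, was higher (0.57 ± 0.13). With FGFRL1, a receptor without a kinase domain, this made 5 of 16 lower and 2 higher, and leaving out 1 library made the number lower 2 (1/7MC replicate 2 or 1/7MC+Pyr+FGF replicate 1) or 3 (1/7MC replicate 1 or 3, 1/7MC+Pyr replicate 1 or 1/7MC+Pyr+FGF replicate 2). The calls for FGF1, FGF8 and FGF18 were among those lost. The number higher became 1 when 1/7MC replicate 1 was left out and 4 when 1/7MC+Pyr+FGF replicate 1 was. TEK, the angiopoietin receptor, went from 10.8, 10.6 and 8.62 CPM to 22.1, 27.4 and 20.6 CPM (1.22 ± 0.14), with no overlap, and VWF, the clotting factor of endothelium, rose by 1.93 ± 0.27, whereas CD34, a marker of blood progenitors and vessels, fell by 2.02 ± 0.37. Of 18 p53 and apoptosis genes 3 rose, with CDKN1A, a cell cycle inhibitor, at 0.55 ± 0.09, and 3 fell. Over all genes tested, 12.1% rose and 17.5% fell.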
